A study of Mus musculus with 6 samples.

Results

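The genes described here are the lipogenic transcription factor genes Srebf1 and Mlxipl, the fatty acid synthesis genes Acly, Acaca, Acacb, Fasn, Elovl6, Scd1 and Scd2, and Insig1, which encodes the protein that holds back SREBP maturation. All array probes whose RefSeq accession belongs to 1 of these 10 genes were taken, which gave 15 probes of 39429. Of these, 12 probes of 9 genes were bright enough to be compared, out of 25221 such probes and 14550 named genes in all; Fasn was the gene left without a usable probe. The arrays measured total RNA from the heart ventricles of female C57BL/6N mice aged 21 weeks. In the sleep fragmented group (3 arrays) sleep had been broken up for 5 weeks, and in the control group (3 arrays) the mice were left undisturbed. No genetic change or drug is named for either group. The labels do not say that each array came from a different animal, so the spread between arrays may be technical. The genes were chosen by their role in lipogenesis together with measured values, the signals of these same arrays in sleep fragmented against control hearts. Their differences are therefore a description, without a test of their own.

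SREBP-1, the product of Srebf1, is made as a precursor in the membrane of the endoplasmic reticulum. It travels with the escort protein Scap to the Golgi, is cut by the site-1 and site-2 proteases, and the freed part enters the nucleus and switches on genes of fatty acid synthesis; Insig proteins keep Scap in the endoplasmic reticulum. Insulin and the liver X receptors raise Srebf1 transcription, and ChREBP, the product of Mlxipl, responds to glucose and shares many target genes. These enzymes are most active in liver and fat. Heart muscle mainly burns fatty acids, and malonyl-CoA made by the acetyl-CoA carboxylases acts there as a brake on fatty acid entry into mitochondria.

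Levels are log2 signals relative to each array's 75th percentile of signal, so a value of 0 is the level of a fairly bright probe. They compare arrays for 1 probe and do not rank genes. Depending on the array, 59.2% to 72.6% of probes exceeded background clearly. The 75th percentile of signal was 123 on sleep fragmented replicate 1 and between 204 and 252 on the other arrays. Heart muscle genes marked every array, with the ventricular myosin light chain gene Myl2 between 6.77 and 7.60. Atrial genes did not lie at 1 level: the atrial light chain gene Myl7 stood at 2.51 on control replicate 2 and 3.56 on sleep fragmented replicate 2, against -3.26 to -1.18 on the other 4 arrays. High atrial signal was not confined to replicate 2. The atrial gene Myl4, also highest on replicate 2 of each group, read 4.035 on control replicate 3 and 4.419 on sleep fragmented replicate 3. On replicate 1 it read -0.1198 in the controls and -0.04737 in the sleep fragmented group. The file headers place the 3 sleep fragmented arrays in a scan of their own and the 3 controls in a second one, so scan and group cannot be told apart in any difference below. In whole tissue, fewer cells of a type and less RNA per cell cannot be told apart either.

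Srebf1 was lower in the sleep fragmented hearts, and it was the only gene of the 10 that was lower there without overlap of the groups. Its single probe, designed on NM_011480, read -1.83, -1.97 and -2.46 on control replicates 1 to 3 and -3.72, -2.82 and -3.23 on sleep fragmented replicates 1 to 3. All 3 sleep fragmented values were thus under the lowest control value, and the lowest value was on the array with the weakest overall signal. The group means were -2.09 ± 0.33 in controls and -3.26 ± 0.45 in sleep fragmented hearts (SD, n = 3 each), a log2 fold change of -1.17 ± 0.27 (limma standard error), or 2.25-fold lower. The file headers hold 3 different array barcode entries, each shared by 1 sleep fragmented and 1 control array of the same replicate number; what such an entry marks (a slide, a position or another thing) is not stated. Between arrays with the same entry, the differences were -1.88, -0.85 and -0.77.

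Markers of red blood cells also separated the groups, in the other direction. Of 6 such genes 5 could be compared, all 5 were higher in sleep fragmented hearts, and for 4 (Alas2, Hba-a1, Hbb-bs and Hbb-bt) the groups did not overlap. Their summed signal, in units of the array's 75th percentile, ranged from 107 to 122 over the controls and from 166 to 403 over the sleep fragmented arrays, with a median log2 fold change of 1.40. All 8 fibroblast markers had positive values (median 0.39) and overlapping groups, with summed signals of 101 to 114 in controls and 102 to 171 in sleep fragmented hearts. The 5 hepatocyte markers that could be compared, of 7, also had positive values and overlapping groups (median 0.60). Their summed signals were 0.99 to 2.33 in controls and 1.31 to 8.88 in sleep fragmented hearts, and Apoa1 and Apob missed the filter. Cyp2e1, named after its values were seen, read 2.97 on sleep fragmented replicate 2, the array with the sum of 8.88. It read 0.61 on control replicate 2 and -3.1 to -1.2 on the other arrays. Alb, Ttr and Fgb were dim, at levels where dim probes as a whole were higher as well. The 6 compared atrial markers, of 7, were positive with overlapping groups as well (median 0.55), with summed signals of 16.6 to 215 in controls and 33.9 to 302 in sleep fragmented hearts. The lists above are those in which every compared gene was positive. Positive genes numbered 6 of 10 for ventricular muscle, 4 of 8 for endothelium and 4 of 7 for macrophages. They numbered 8 of 9 for nerve, 8 of 11 for adipocytes and 1 of 5 for brown fat. The endothelial gene Pecam1 was lower without overlap (-0.34 ± 0.21), as were 3.97% of named genes. The part of any of these cells in the Srebf1 difference, or in those of the other genes, was not tested.

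The Srebf1 signal was close to background. The processed signals were 70.6, 62.1 and 37.7 on the controls and 9.33, 31.2 and 21.7 on the sleep fragmented arrays. The probe was well above background on all 3 controls but on 1 of the 3 sleep fragmented arrays, so it was compared only because of the group in which it was higher, and the size of its fold is uncertain. With normexp background correction, which compresses dim signals, the log2 fold change was -0.26. Among the 5345 probes within 0.5 of its mean level, the median log2 fold change was 0.26, so dim probes as a whole lay on the other side of 0. Leaving out sleep fragmented replicate 1 gave -0.94, and leaving out replicate 2 of both groups gave -1.33.

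After limma's test with Benjamini-Hochberg adjustment, 0 of 25221 probes (0%) passed 0.05, while 735 did so before adjustment. None of the 9 compared genes was therefore called. By a looser rule, 1.5-fold or more with a p under 0.05 before adjustment, Srebf1 was the 1 gene of 9 on the lower side, where the share over all named genes was 0.729%, and 0 of 9 were on the higher side, where it was 1.22%. Groups did not overlap for 3.97% of named genes on the lower side, again with Srebf1 among them, and for 3.65% on the higher side, with 0 of the 9. Counted over probes in place of genes, the shares were 0.67% lower and 1.26% higher by the p and fold limits, and 3.37% lower and 3.89% higher by non-overlap. Since the genes were chosen with this comparison known, nothing is read from these shares.

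**Figure D1:**
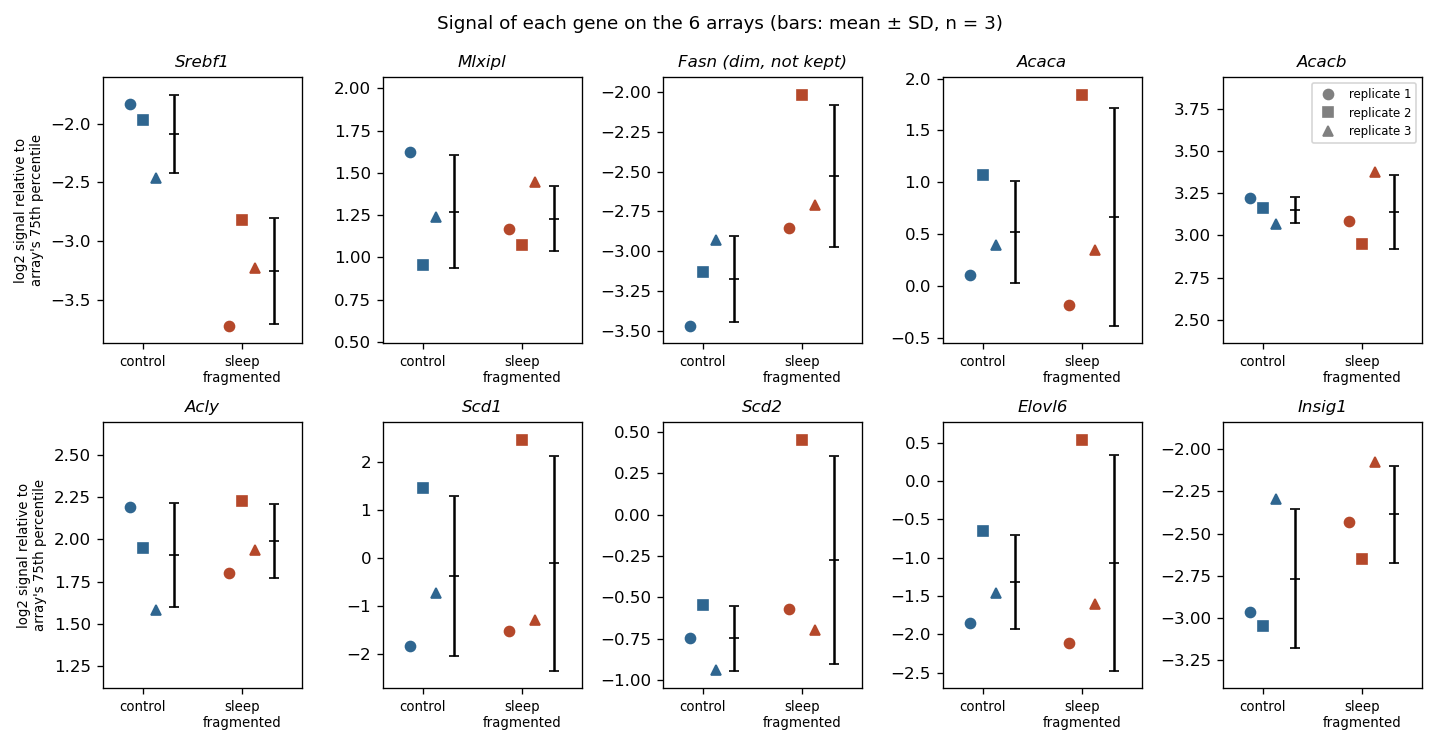
Log2 signal relative to the array's 75th percentile (vertical axes, a separate scale in each panel, spanning at least 1.5) for the probe that stands for each of the 10 genes, by group; symbols mark replicate numbers and bars give the mean ± SD of 3 arrays. Srebf1 is lower on every sleep fragmented array, and for Scd1, Elovl6 and Acaca the square of replicate 2 is the highest point of both groups; Fasn was too dim to be compared.

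The RefSeq promoter table (GRCm38.p6) gives 3 transcription starts for Srebf1. The files do not hold the probe's sequence, so which of these transcripts it reads was not determined. The 3 promoter windows are shown because the gene is the one whose groups were apart. Each runs 5′ to 3′ from 250 bases before the start to 50 bases after it, with capitals at matches, on either strand, to the E-box CACGTG, the NF-Y box CCAAT, the Sp1 box GGGCGG or the sterol element core TCACNCCAC.
Srebf1 start 1 (chr11:60222532-60222831, minus strand): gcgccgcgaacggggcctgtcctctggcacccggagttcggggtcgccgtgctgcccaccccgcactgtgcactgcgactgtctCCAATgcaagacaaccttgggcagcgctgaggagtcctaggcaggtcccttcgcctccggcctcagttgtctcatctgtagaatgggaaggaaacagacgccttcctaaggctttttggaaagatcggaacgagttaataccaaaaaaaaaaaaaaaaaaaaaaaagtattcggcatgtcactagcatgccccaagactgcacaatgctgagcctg
Srebf1 start 2 (chr11:60220578-60220877, minus strand): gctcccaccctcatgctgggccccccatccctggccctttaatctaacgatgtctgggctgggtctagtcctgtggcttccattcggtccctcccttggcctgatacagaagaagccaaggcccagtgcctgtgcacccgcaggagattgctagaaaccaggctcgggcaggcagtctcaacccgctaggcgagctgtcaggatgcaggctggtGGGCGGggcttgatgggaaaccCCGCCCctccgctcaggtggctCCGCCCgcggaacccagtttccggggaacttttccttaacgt
Srebf1 start 3 (chr11:60210422-60210721, minus strand): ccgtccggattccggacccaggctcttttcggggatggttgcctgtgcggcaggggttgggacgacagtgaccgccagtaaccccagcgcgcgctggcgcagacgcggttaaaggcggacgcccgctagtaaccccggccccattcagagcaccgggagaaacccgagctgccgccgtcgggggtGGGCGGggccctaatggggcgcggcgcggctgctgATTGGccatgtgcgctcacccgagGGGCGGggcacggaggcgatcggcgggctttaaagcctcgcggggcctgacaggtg
The windows at starts 1 and 3 held 1 NF-Y box each, and those at starts 2 and 3 held 3 and 2 Sp1 boxes. Over all 32851 promoter windows of this length, 37.4% held an NF-Y box, 35.7% an Sp1 box, 7.15% an E-box and 1.24% a sterol element core. Neither of the last 2 motifs was found in these 3 windows.

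Insig1, a target of SREBP and its inhibitor, had overlapping groups with a slightly higher mean in the sleep fragmented hearts. It read -2.96, -3.05 and -2.30 on the control replicates and -2.43, -2.65 and -2.08 on the sleep fragmented ones. Control replicate 3 was as high as the sleep fragmented arrays, and the other 2 controls were the lowest of the 6. The log2 fold change was 0.38 ± 0.25 (limma standard error, n = 3 per group), with differences of 0.53, 0.40 and 0.22 between arrays of the same barcode entry. Its size depended on the processing and on single arrays: it was 0.13 with quantile normalization and 0.71 with array weights. Leaving out control replicate 3 gave 0.62, and leaving out sleep fragmented replicate 3 gave 0.23. The 5893 probes of about its level had a median of 0.26, so dim probes as a whole lay on the same side. Of the 9 compared genes of SREBP processing and its partner factor, 4 had positive and 5 negative values, 0 were called and the median was -0.03, beside 0.05 for all named genes. Scap had a log2 fold change of 0.06 ± 0.18 and Insig2 one of -0.05 ± 0.18 (its other probe -0.15). The site-1 protease gene Mbtps1 had one of -0.12 ± 0.20, with the opposite sign on its other probe (0.18). Srebf2, the sister gene that mainly serves cholesterol synthesis, had one of 0.18 ± 0.20. Fbxw7, which marks nuclear SREBP for destruction, had one of -0.25 ± 0.22, its other probe 0.28. The groups overlapped for all 9 of these genes; the site-2 protease gene Mbtps2 was too dim to be compared.

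The Insig1 window is shown beside those of Srebf1 because it held 3 of the 4 motifs: an E-box, an NF-Y box and 3 Sp1 boxes, as the upstream window of Mlxipl also did with 2 Sp1 boxes.
Insig1 (chr5:28071162-28071461, plus strand): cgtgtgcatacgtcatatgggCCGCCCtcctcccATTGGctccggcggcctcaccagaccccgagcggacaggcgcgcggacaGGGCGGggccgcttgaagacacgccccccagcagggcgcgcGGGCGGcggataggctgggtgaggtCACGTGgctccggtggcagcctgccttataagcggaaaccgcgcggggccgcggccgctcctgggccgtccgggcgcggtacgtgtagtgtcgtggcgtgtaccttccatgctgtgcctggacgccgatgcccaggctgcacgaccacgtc
Windows were found for 8 of the 10 genes, 11 in all. An NF-Y box was present in 7 of the 11 windows (6 genes) and an Sp1 box in 5 (4 genes). The E-box was present in 2 windows, of Insig1 and of the upstream start of Mlxipl, and the sterol element core in 1, the downstream start of Mlxipl. The Fasn window held 3 NF-Y boxes, and 2 of these overlap each other on opposite strands. A match is a match of letters, and its use in the heart was not measured.

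Mlxipl, the ChREBP gene, was read by 2 probes for the same transcript, and the groups overlapped for both. The brighter one gave 1.62, 0.95 and 1.24 on the controls and 1.17, 1.08 and 1.45 on the sleep fragmented arrays. The other gave 1.15, 1.23 and 0.92 against 0.52, 0.76 and 0.99. Their log2 fold changes were -0.04 ± 0.22 and -0.34 ± 0.20, which differ from each other by about the size of their errors. Of the 8 compared genes that partner with ChREBP or are known as its targets, 2 had positive and 6 negative values, 0 were called, and the median was -0.08. The partner gene Mlx had a value of -0.06 ± 0.18 and Mlxip, the paralogue of Mlxipl, one of -0.02 ± 0.21. The glucose-responsive arrestin genes Txnip and Arrdc4 had values of -0.38 ± 0.22 and -0.39 ± 0.26, with -0.33 and -0.38 on their second probes. G6pc, the glucose-6-phosphatase gene of liver, was dim and had a value of 0.37 ± 0.20.

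The enzymes that supply acetyl-CoA and malonyl-CoA showed no separation of the groups on their bright probes. Acly, which makes cytosolic acetyl-CoA from citrate, read 2.19, 1.95 and 1.58 on the controls and 1.80, 2.23 and 1.94 on the sleep fragmented arrays, a log2 fold change of 0.08 ± 0.22 (its other probe 0.20 ± 0.26). With the median as the scale it was -0.13, so its sign depended on the scaling. Acacb, the carboxylase that sits at mitochondria and predominates in heart, was the steadiest of the 9 genes. It read 3.22, 3.16 and 3.07 on the controls and 3.09, 2.95 and 3.37 on the sleep fragmented arrays, a span of 0.42 over all 6 arrays. Its log2 fold change was -0.01 ± 0.19, and 0.03 ± 0.22 on the second probe.

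Acaca, the cytosolic carboxylase of lipogenic tissues, varied more between arrays than between groups. Its bright probe read 0.11, 1.07 and 0.39 on the controls and -0.18, 1.84 and 0.35 on the sleep fragmented arrays. Replicate 2 was the highest of its group on both sides, and the log2 fold change was 0.15 ± 0.48, or -0.06 with the median as the scale. Its other 2 probes were too dim to be compared, did not follow this pattern and read higher on every sleep fragmented array, by 0.63 and 0.37 on average. The brighter of these read -3.30, -3.61 and -3.03 on the controls and -2.57, -2.67 and -2.81 on the sleep fragmented arrays.

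Fasn, which joins malonyl-CoA units into palmitate, was near background, as its probe was well above it on 2 arrays of each group. It read -3.47, -3.13 and -2.93 on the controls and -2.85, -2.02 and -2.71 on the sleep fragmented arrays. Every sleep fragmented array was above every control, the opposite direction to Srebf1, with a difference of the means of 0.65 and the highest value on sleep fragmented replicate 2. Because the probe missed the filter and dim probes as a whole were shifted the same way, this difference is given as a value only.

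**Figure D2:**
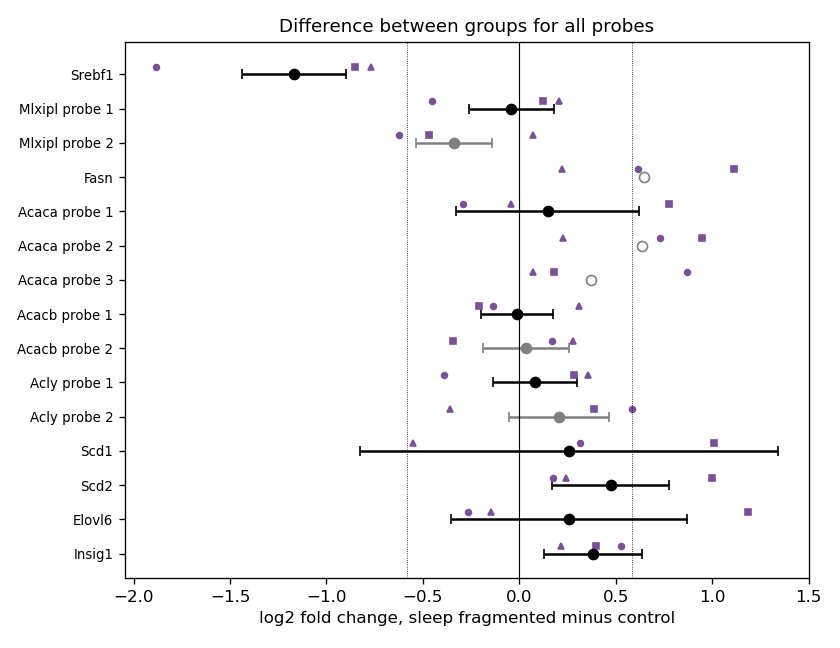
Log2 fold change, sleep fragmented minus control, for all 15 probes (horizontal axis); filled circles with limma standard errors are compared probes, black where the probe stands for its gene, open circles are probes too dim to be compared, and small purple symbols are the differences between arrays of the same barcode entry. Dotted lines mark 1.5-fold; Srebf1 lies beyond the lower line with all 3 such differences, while those of Scd1, Elovl6 and Acaca fall on both sides of 0.

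Scd1 and Elovl6 had the widest spans over the 6 arrays among the 9 compared genes, and both were highest on replicate 2 of each group. Scd1, the stearoyl-CoA desaturase of fat and liver, read -1.84, 1.44 and -0.74 on the controls and -1.53, 2.45 and -1.29 on the sleep fragmented arrays. Its processed signal was 1200 on sleep fragmented replicate 2 and 659 on control replicate 2, against 42.5 to 124 on the other 4 arrays. Replicate 2 exceeded the mean of the other 2 arrays of its group by 14.5-fold in the sleep fragmented group and by 6.64-fold in the controls. Between the groups the log2 fold change was 0.26 ± 1.08. It was -1.03 without sleep fragmented replicate 2 and 1.17 without control replicate 2, so its sign rested on single arrays. Without replicate 2 of both groups it was -0.12.

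Elovl6, which lengthens palmitate to stearate, followed the same order. It read -1.85, -0.65 and -1.46 on the controls and -2.12, 0.53 and -1.61 on the sleep fragmented arrays, with replicate 2 above the other arrays of its group by 5.27-fold and 2.01-fold. Its log2 fold change was 0.26 ± 0.61, and -0.21 without replicate 2 of both groups. Scd2, the desaturase of brain and of many other tissues, read -0.75, -0.55 and -0.94 on the controls and -0.57, 0.45 and -0.70 on the sleep fragmented arrays. Here sleep fragmented replicate 2 stood above the other 5 arrays, which lay between -0.94 and -0.55. The log2 fold change of Scd2 was 0.47 ± 0.30, with 0.18, 1.00 and 0.24 between arrays of the same barcode entry, and 0.21 without replicate 2 of both groups. Scd genes are close relatives, and how far their probes bind one another's transcripts is not known from the files. Scd3, read by 3 probes, and Scd4 lie in the list of other lipogenic genes. They were singled out after their values were seen: the brightest probe of Scd3 was lowest in its group on replicate 2 of both groups, while Scd4 read -2.63, -0.77 and -2.38 on the controls and -0.73, -1.11 and -1.97 on the sleep fragmented arrays.

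Replicate 2 was the highest array of its group in both groups for 4 of the 9 compared genes (Acaca, Scd1, Scd2 and Elovl6), which was so for 13.4% of all named genes. The same 2 arrays were the ones on which some adipocyte markers were high. The fat hormone gene Adipoq read -2.97, 1.97 and -0.74 on the controls and -2.65, 2.87 and -1.44 on the sleep fragmented arrays. Cfd, the adipocyte serine protease adipsin, read -2.17, 3.23 and 0.50 against -1.41, 4.30 and -0.08. Retn was also highest on replicate 2 of both groups, with smaller steps. Fabp4, which endothelial cells also express, was not highest there, with values between 6.02 and 6.87. Of the 15 adipocyte markers 11 could be compared. For 6 of the 11 replicate 2 was highest in both groups, and their mean level ranged from 0.10 to 2.12 over the controls and from 0.58 to 2.60 over the sleep fragmented arrays. Their summed signal, on the same relative scale, ranged from 210 to 224 and from 214 to 265. Lipe, Adrb3 and Lpl, named after their values were seen, went the other way and were lowest on replicate 2 of both groups. Lep was well above background on no array. Plin1 and Cidec, which coat lipid droplets, and Acvr1c missed the filter.

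Some markers of brown fat and of atrium were high on the same 2 arrays. Ucp1, the uncoupling protein of brown adipocytes, missed the filter but read -3.28, 2.60 and 0.38 on the controls and -2.56, 2.28 and -1.93 on the sleep fragmented arrays. Of the 5 brown fat markers compared, Cidea and Dio2 were highest on replicate 2 of both groups. Cox7a1 and Cox8b, which heart muscle also expresses, were not, and nor was Prdm16. Prdm16 and Elovl3 are named after their values were seen. Prdm16 read 0.44, 0.41 and 0.13 on the controls and -0.08, -0.46 and 0.15 on the sleep fragmented arrays. Elovl3 missed the filter and read -5.53, -2.30 and -5.24 against -4.52, -4.89 and -5.56. Of the 6 compared atrial markers 4 were highest on replicate 2 in both groups. The myelin gene Mbp was also high there, at -0.46 on control replicate 2 and 0.74 on sleep fragmented replicate 2 against -3.02 to -2.59 on the others. The part of fat, atrial or nerve tissue in the Scd1, Elovl6, Acaca and Scd2 values was not tested. Srebf1 was not among these 4 genes, since its highest control was replicate 1, although sleep fragmented replicate 2 was the highest of its group. Its replicate 2 lay above the mean of the other 2 arrays by 0.18 in the controls and by 0.66 in the sleep fragmented group.

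**Figure D3:**
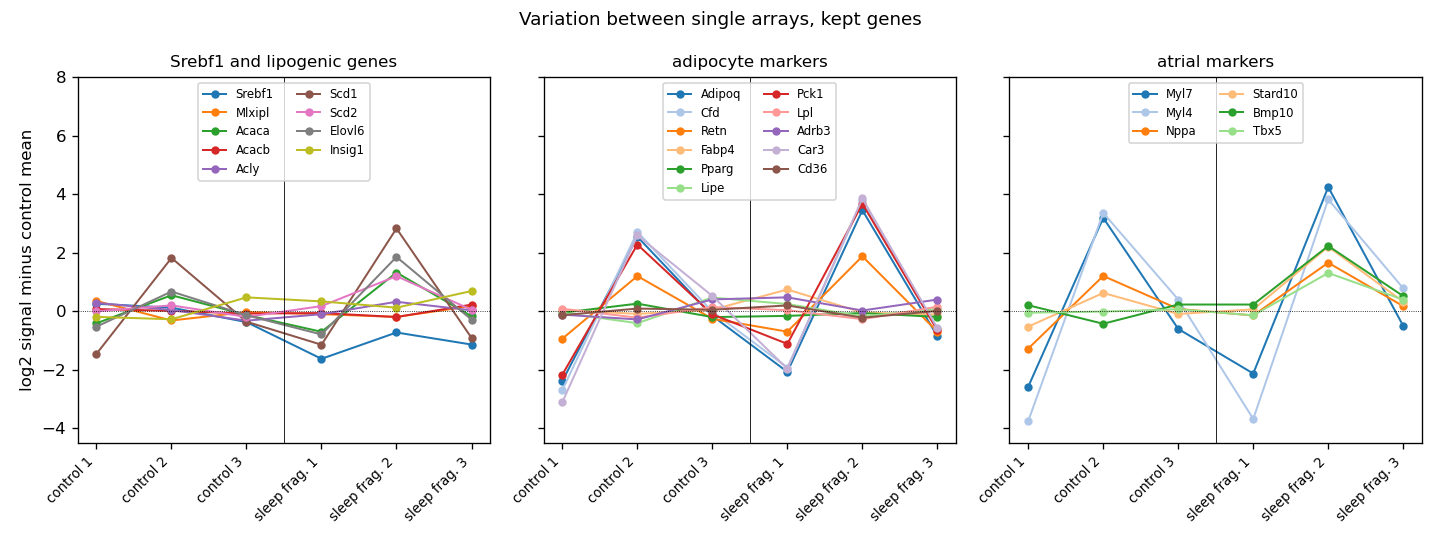
Log2 signal of each compared gene minus its mean over the controls (vertical axis, 1 scale for the 3 panels) on the 6 arrays, for the 9 genes, 11 adipocyte markers and 6 atrial markers; lines only join the points of a gene. Scd1, Elovl6 and Acaca peak on replicate 2 of both groups, as Adipoq, Cfd and the atrial genes Myl7 and Myl4 do, while Srebf1 is low on all 3 sleep fragmented arrays.

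Acaca and Elovl6 had the same order of arrays (Pearson r of 1.00 and Spearman rho of 1 over 6 arrays, a description that rests on replicate 2 of both groups), and Scd1 followed Elovl6 with r of 0.97 and rho of 0.94. All these genes were read on the same arrays, with the same differences in depth, the same scan by group and the marker differences above. Against the mean of the adipocyte markers, r was 0.98 for Scd1, 0.94 for Acaca, 0.93 for Elovl6 and 0.71 for Scd2, but 0.10 for Srebf1, 0.18 for Acly and -0.81 for Mlxipl. The windows of Acaca and Elovl6, shown because these genes varied together, held none of the 4 motifs and therefore carry no capitals; RefSeq's window for Acaca is the 1 start the table gives.
Acaca (chr11:84195188-84195487, plus strand): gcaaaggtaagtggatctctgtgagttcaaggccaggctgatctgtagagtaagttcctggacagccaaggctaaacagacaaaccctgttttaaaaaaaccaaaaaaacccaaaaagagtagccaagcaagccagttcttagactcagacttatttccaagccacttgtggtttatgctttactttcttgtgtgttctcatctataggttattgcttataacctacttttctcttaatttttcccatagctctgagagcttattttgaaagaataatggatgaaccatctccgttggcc
Elovl6 (chr3:129532136-129532435, plus strand): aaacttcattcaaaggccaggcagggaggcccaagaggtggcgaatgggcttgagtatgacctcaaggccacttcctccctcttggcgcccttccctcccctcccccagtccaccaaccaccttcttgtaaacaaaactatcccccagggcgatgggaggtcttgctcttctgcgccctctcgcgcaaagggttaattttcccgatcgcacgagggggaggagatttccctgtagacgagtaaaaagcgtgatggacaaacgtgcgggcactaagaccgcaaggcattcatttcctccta

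Other genes of lipid synthesis did not move together between the groups. Of 22 compared genes among the other lipogenic genes, 14 had positive and 8 negative values, the median was 0.06 beside 0.05 for all named genes, and 0 were called. The malic enzyme gene Me1, which supplies NADPH, had a log2 fold change of -0.12 ± 0.18 (its other probes 0.02 and -0.04). Acss2, which activates acetate, had one of -0.02 ± 0.18, its other probe 0.32. The elongase genes Elovl5 and Elovl1 had 0.13 ± 0.20 and -0.14 ± 0.21, the latter with 0.07 on its other probe. The desaturase gene Fads1 had 0.29 ± 0.34, with its highest value, -1.13, on sleep fragmented replicate 2. One gene of the list had groups that did not overlap and is named after its value was seen: Acsl3, which activates fatty acids for lipid droplets, read -0.38, -0.51 and -0.91 on the controls and -1.63, -1.14 and -1.09 on the sleep fragmented arrays (-0.69 ± 0.23). Like Srebf1 it was lower on every sleep fragmented array, but unlike Srebf1 it was well above background on all 6. Over all named genes, 3.97% were lower without overlap, and nothing is read from 1 gene of 22.

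Of the 19 compared genes of cholesterol synthesis and uptake, which SREBP-2 mainly drives, 14 had positive and 5 negative values, with a median of 0.11 and 0 called. The synthase gene Hmgcs1 had a value of 0.01 ± 0.18, the isomerase gene Idi1 0.09 ± 0.21 and the farnesyl diphosphate synthase gene Fdps 0.10 ± 0.18. Sqle, which epoxidises squalene, read -2.26, -2.87 and -2.66 on the controls and -1.97, -1.93 and -2.05 on the sleep fragmented arrays. It was the 1 gene of this list without overlap, higher by 0.61 ± 0.20, at a level where dim probes as a whole were higher as well. Over all named genes, 3.65% were higher without overlap, and nothing is read from 1 gene of 19.

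The regulators upstream of Srebf1, listed with some of their targets, showed no common difference. For the liver X receptors, their partners, cofactors and targets, 8 of 16 compared genes were positive and the median was -0.01. Nr1h2 had a value of -0.09 ± 0.18 and Nr1h3 one of -0.07 ± 0.24 (its other probe 0.17). The partner receptor genes Rxra and Rxrb had 0.04 ± 0.21 (its other probe 0.22) and 0.06 ± 0.17, and the liver X receptor target Abca1 had -0.23 ± 0.21. Other targets in the list, named after their values were seen, went both ways. Abcg1 had 0.29 ± 0.20, Mylip 0.24 ± 0.20 (its other probe 0.13) and Lpcat3 -0.14 ± 0.19. For insulin and AMPK signalling, 9 of 18 were positive and the median was -0.01. The receptor gene Insr had a value of -0.32 ± 0.22 (its other probes -0.20 and -0.01). The adaptor genes Irs1 and Irs2 had -0.50 ± 0.27 (its other probe -0.14) and 0.39 ± 0.24. The kinase genes Akt1 and Akt2 had 0.03 ± 0.26 and -0.02 ± 0.22, the latter with -0.03 and 0.07 on its other probes. In both lists 0 genes were called and the groups overlapped for every gene. With the median in place of the 75th percentile as the scale, the median over all compared probes moved from 0.08 to -0.13 and the medians of the lists moved down with it.

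**Figure D4:**
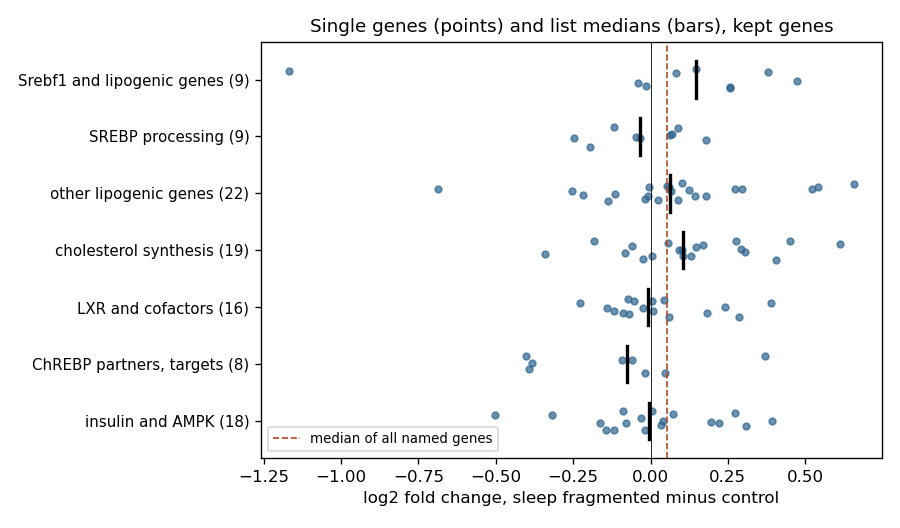
Log2 fold change, sleep fragmented minus control, of each compared gene (points, with vertical scatter for legibility) in the Srebf1 and lipogenic set and in 6 lists of related genes, with the number of genes in brackets, list medians as bars and the median of all named genes as a dashed line. The list medians lie between -0.08 and 0.15, and Srebf1 is the lowest point of the plot at -1.17.

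Of 12771 named genes above background on all 6 arrays, the 5 whose levels were most like those of Srebf1 were Mysm1, Znfx1, Ctdsp2, Rad1 and Spsb4, with Pearson r between 0.98 and 1.00 over 6 arrays. Ctdsp2, a phosphatase gene, read 3.07, 3.03 and 2.81 on the controls and 2.37, 2.77 and 2.63 on the sleep fragmented arrays, a much smaller span than that of Srebf1. Most like the mean of the 9 compared genes were Zeb2, Zranb3, Fndc3b, Cdon and Igfbp5 (r between 0.98 and 0.99). That mean was -0.23, 0.26 and -0.18 on the controls and -0.50, 0.67 and -0.20 on the sleep fragmented arrays, high on replicate 2 of both groups. These genes were picked as the top of a ranking over 6 arrays. Their r values are therefore high by selection and are given as a description.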

How the data were processed

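Total RNA of 6 ventricle samples was read on 1-colour (Cy3) Agilent arrays of design 026655. Intensity values (background-subtracted, detrended spot signals, raw spot medians and local backgrounds) come from Feature Extraction 11.0.1.1, per the file headers; the submitters' processing notes name 10.5.1.1. The deposited spot flags are other values, 0 or 1. The authors' deposited table of log2 values (column medians 5.53, no stated method) was an alternative only.

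Outlier spots (180 to 240 per array) and controls were left out, log2 signals were averaged per probe, and each array's 75th percentile was subtracted. A probe was kept if 1 group or both had it clearly over background on all 3 arrays. RefSeq accessions were matched to a GRCm38.p6 gene table, which named 27234 probes (69.1%). The brightest kept probe stood for a gene. Groups were compared with limma 3.58.1 in R 4.3.3. The p-values were adjusted over the kept probes by Benjamini-Hochberg, and the fit was tested on simulated data. The number of arrays limits the precision. Members and lists were chosen with earlier results of these data known. Named with values were all members, the first 5 compared genes of each pathway list, up to 4 of a marker list, and genes said to be chosen after their values were seen; some genes that this rule names are not reported here. Deviations of same-numbered arrays correlated at 0.06, 0.55 and 0.21 between groups, and those of differently numbered arrays at -0.50 to 0.36. Numbers were not taken as pairs in the main fit, and a fit with the replicate block was an alternative.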

Additional observations from a re-analysis of the deposited data

How the results depend on the processing

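Srebf1 stayed negative under the 16 alternatives that gave it a value, from -1.39 to -0.26, and a filter that asks for clear signal on all 6 arrays removed it. Several of these could not move its value from -1.167: no filter, the replicate block, a trended and robust prior in limma, and the mean over its probes. The authors' table gave -1.385, as quantile normalization did, so the 16 are not separate checks. The number of the 9 genes past the adjusted threshold was 1 with array weights and 0 otherwise; since the genes were chosen on this comparison, that is no test of them. At an unadjusted p under 0.05 and 1.5-fold, the lower count of 1 became 0 with normexp and 0 with the all-array filter; the higher count of 0 became 1 with array weights and 0 to 1 without single arrays (1, Insig1, without control replicate 3). Members at least 1.5-fold different numbered 1, but 0 with normexp, 0 with the all-array filter, 2 without a filter and 3 with array weights, and 1 to 4 without single arrays (4 without sleep fragmented replicate 1). The share of all named genes past this fold alone is not given beside these counts, so nothing is read from them. Scd1 ranged from -1.03 to 1.17, Elovl6 from -0.54 to 0.78 and Acaca from -0.44 to 0.57, so their signs are not determined.

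Over all probes, 0 passed the adjusted threshold, but 53 did with array weights, 4 under the replicate block, 3 with normexp and 5 without replicate 2 of both groups, a choice made after seeing the data. The 317 higher probes became 92 (quantile normalization), 92 (median), 78 (normexp), 1216 (no filter), 94 (authors' table), 642 (replicate block), 941 (weighted arrays), 549 (without replicate 2 of both groups) and 149 to 2501 without single arrays (149 without sleep fragmented replicate 1, 2501 without control replicate 3). The 169 lower probes became 287 (quantile), 574 (median), 101 (normexp), 284 (authors' table) and 324 (array weights). The replicate block, whose numbers coincide with the barcode entries in the file headers, changed no call among the 9 genes. It lowered the standard errors of the genes that were high on replicate 2, for Scd1 from 1.08 to 0.275. For Acaca the change was from 0.475 to 0.228 and for Elovl6 from 0.613 to 0.28.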
